A study of Mus musculus with 8 samples.

Results

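The low-density lipoprotein receptor family, the related sorting receptor Sorl1 and the ubiquitin ligase Mylip were described in cortex from APP/PS1 mice (C57BL/6 background), whose transgenes lead to amyloid plaques. The 9 genes Vldlr, Lrp8, Lrp1, Lrp1b, Lrp2, Lrp4, Lrp6, Sorl1 and Mylip were taken by symbol from the 22869 symbols of a deposited RNA sequencing count table, each by its row of highest mean count. All 9 passed the low-count filter and stood among 16069 genes tested. All mice carried the APP/PS1 transgenes. One group of 4 libraries came from mice given bexarotene, a retinoid X receptor agonist, and the other of 4 libraries from animals that received glycerol, 0.2 mg/kg, named vehicle below. The sources used here do not give the bexarotene dose, the duration, the age and sex of the mice or the promoters of the transgenes. Whether the libraries are separate animals or pools is not labelled, so the p-values reflect spread among these libraries only, part of which may be technical.

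Receptors of this family are single-pass membrane proteins whose clustered ligand-binding repeats take up lipoproteins, proteases and their inhibitors. Vldlr and Lrp8 (also called ApoER2) bind reelin and pass its signal to Dab1, and Lrp1 clears apolipoprotein E and amyloid-beta from the interstitial fluid. Sorl1 joins family-type repeats to a VPS10 domain and steers the amyloid precursor protein through the retromer pathway, and Mylip (also called Idol), a target of liver X receptors, marks Vldlr and Lrp8 for degradation. Bexarotene activates the retinoid X receptor, the partner of liver X receptors on DNA.

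The upstream sequences of Mylip and Sorl1 are shown because these genes carry the main patterns below: for Mylip the groups did not overlap, and Sorl1 varied most between libraries among the 8 members with more than trace expression. Each window is the 250 bases before the annotated start, from RefSeq (GRCm38.p6), chr13:45389492-45389741 on the plus strand for Mylip and chr9:42124298-42124547 on the minus strand for Sorl1. Capitals mark GGGCGG, the GC box.
Mylip: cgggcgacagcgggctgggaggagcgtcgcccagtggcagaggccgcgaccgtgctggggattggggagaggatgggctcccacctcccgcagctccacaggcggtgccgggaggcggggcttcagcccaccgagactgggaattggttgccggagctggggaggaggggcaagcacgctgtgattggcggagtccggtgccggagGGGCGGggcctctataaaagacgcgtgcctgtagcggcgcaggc
Sorl1: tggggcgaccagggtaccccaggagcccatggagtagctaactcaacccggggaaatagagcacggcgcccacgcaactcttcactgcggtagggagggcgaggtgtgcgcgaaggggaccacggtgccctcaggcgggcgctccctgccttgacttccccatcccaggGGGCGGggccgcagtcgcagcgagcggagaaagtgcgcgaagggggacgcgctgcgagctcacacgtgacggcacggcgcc
The Mylip window had a GC content of 71.2% with the box 44 bases before the start, and the Sorl1 window 69.6% with the box 81 bases before it. Upstream windows were found for 6 of the 9 genes. On both strands, GGGCGG stood in 32.7% of all 32851 mouse windows of this length, AGGTCA, the core of nuclear receptor sites, in 14%, and TCACNCCAC, a sterol regulatory element, in 1.05%. No other match overlapped the boxes shown. Sorl1 has another annotated start, whose window held none of these motifs, and GGGCGG also stood upstream of Vldlr, Lrp1 and Lrp2. Lrp8 has 3 annotated starts, and 1 of their windows held AGGTCA, 229 bases before the start. In the Mylip and Sorl1 windows AGGTCA and TCACNCCAC had 0 matches, which says only that these letters are not in these windows.

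Total counts ranged from 42413800 to 76542100 per library over all rows. The first principal component of log2 CPM (counts divided by the TMM-scaled library total) held 36.5% of the variance and set replicates 1 and 3 of both groups apart from replicates 2 and 4. All 4 bexarotene libraries held both Xist (84.7 to 218 CPM) and Y-linked transcripts (9.81 to 88.5 CPM summed over 4 genes), a mixture that no vehicle library held at such levels. Vehicle replicates 1 and 3 held Xist at 248 and 307 CPM with at most 0.282 CPM of Y-linked transcripts, and vehicle replicates 2 and 4 held Y-linked transcripts at 134 and 141 CPM with at most 0.861 CPM of Xist, so these vehicle pairs came from different animals. The groups thus differed in their mix of sex-linked transcripts. Under vehicle, any difference of replicates 1 and 3 from replicates 2 and 4 cannot be told apart from one of sex. The 5 cortical neuron markers were present in every library, at a summed 120 to 320 CPM under bexarotene and 155 to 386 CPM under vehicle. The 8 striatum markers were also present, at 259 to 1142 and 203 to 609 CPM. In bulk tissue, fewer cells of a type and less RNA per cell cannot be told apart.

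None of the 9 genes passed the test between bexarotene and vehicle. In edgeR's quasi-likelihood test, 0 of 9 had an adjusted p below 0.05, against 0.00622% of all genes (1 gene), and the smallest adjusted p among the 9 was 0.469. At an unadjusted p below 0.05 there were 2, Lrp8 and Lrp6, both lower under bexarotene, where 8.77% of all genes reached that level, 4.88% higher and 3.89% lower. DESeq2, the edgeR exact test and limma voom also called 0 of the 9, against 0.604%, 0.23% and 0.00622% of all genes, and the smallest adjusted p in any of them was that of Lrp8 in DESeq2 (0.17). The log2 fold change, bexarotene minus vehicle, was negative for 7 genes and positive for Mylip and Lrp2, with a median of -0.16, against 0.00092 over all genes tested, of which 50.2% were positive. Many of these genes have long transcripts, and genes with transcripts over 10000 nt had a median log2 fold change of -0.17 (262 genes). With an offset for transcript length and GC content, 4 of the 9 log2 fold changes were negative and the median was 0.013, so the shared direction was absent under that scaling. The labels do not say that libraries of the same number belong together. Within the 4 same-numbered pairs of libraries, Lrp8 and Lrp6 were lower and Mylip higher under bexarotene in every pair. Of all genes, 8.26% were lower and 10.6% higher in every pair. An exact two-sided permutation within pairs, added after seeing the data, gave p = 0.125 for each of these 3 genes, the smallest that 4 pairs allow. That value is fixed once all 4 pairs go the same way, so it adds nothing to the pair counts.

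**Figure D1:**
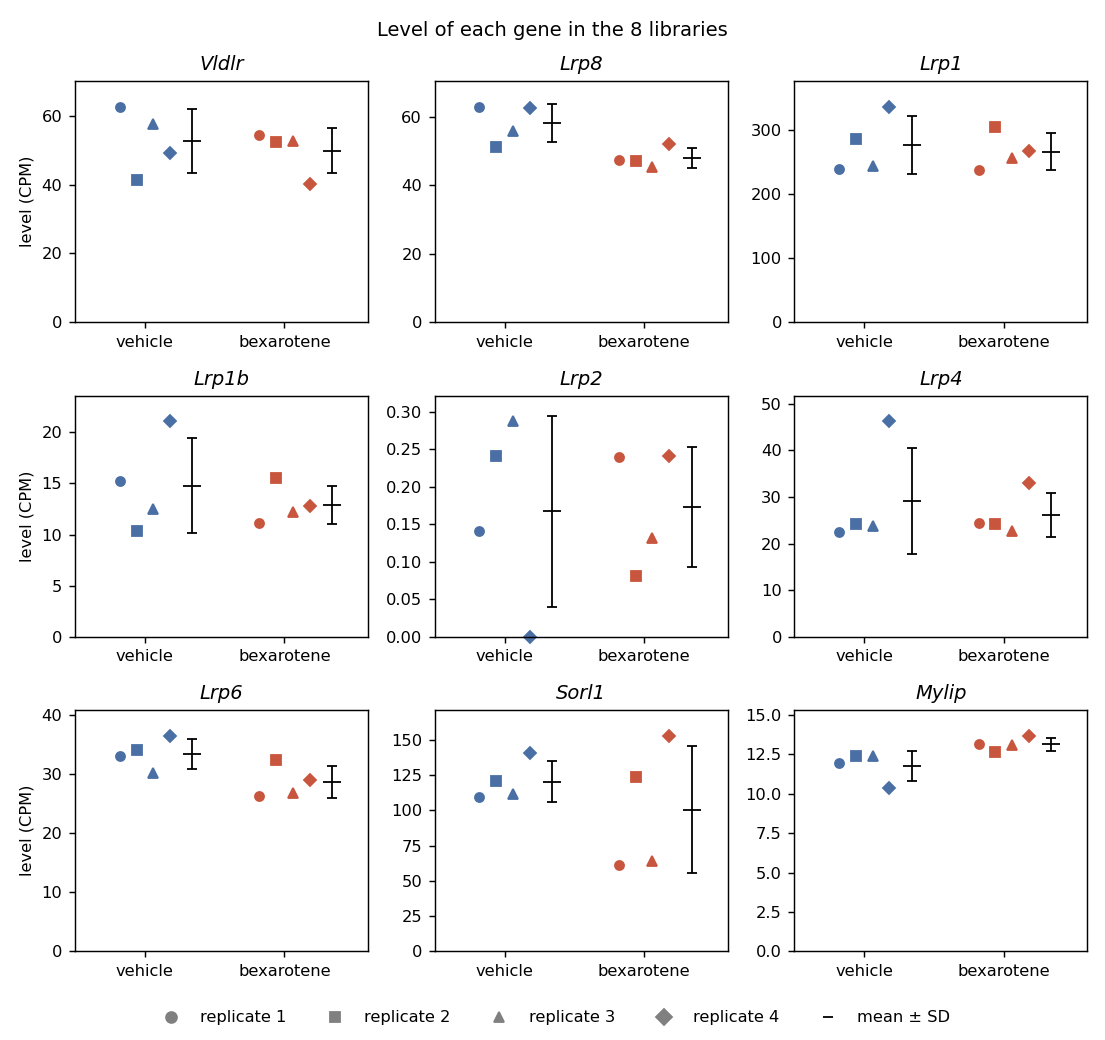
Level in CPM (vertical axes, each from 0) of the 9 genes in 4 vehicle (blue) and 4 bexarotene (red) libraries, with the marker shape giving the replicate and the black bar the mean ± SD. Mylip is the 1 gene whose groups do not overlap, and bexarotene replicates 1 and 3 lie lowest for Sorl1.

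The members covered a wide range of abundance. Per kilobase of transcript, Lrp8 averaged 20.0 ± 2.59 CPM per kb, followed by Lrp1 at 18.3 ± 2.38 and Sorl1 at 10.3 ± 3.07 CPM per kb (SD over 8 libraries). Vldlr averaged 6.43 ± 0.957, Mylip 4.06 ± 0.327, Lrp4 3.48 ± 1.04 and Lrp6 3.30 ± 0.379 CPM per kb. Lrp1b was at 0.849 ± 0.211 and Lrp2 at 0.011 ± 0.0064 CPM per kb. Neighbouring genes in this order were not all separated: Lrp8 exceeded Lrp1 in 6 of 8 libraries, Sorl1 exceeded Vldlr in 6, and Lrp4 exceeded Lrp6 in 3. Lrp1 exceeded Sorl1, Vldlr exceeded Mylip, Lrp6 exceeded Lrp1b and Lrp1b exceeded Lrp2 in all 8. The order depends on the transcript taken. The other table row of Vldlr holds nearly the same counts on 3855 nt instead of 7971 nt and gives 13.3 CPM per kb. For Lrp8 the other row, of 3291 nt instead of 2648 nt, gives 13.6 CPM per kb, below the 18.3 of Lrp1.

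Values per library are listed below in the order of replicates 1 to 4. Of the reelin receptors, Lrp8 had the smallest p of the 9 genes. It was at 47.3, 47.1, 45.2 and 51.9 CPM with bexarotene, against 62.8, 51.2, 55.9 and 62.5 CPM with vehicle. Bexarotene replicate 4 lay just above vehicle replicate 2, and the other 3 bexarotene libraries lay below every vehicle library. The means were 47.9 ± 2.87 and 58.1 ± 5.62 CPM (SD, n = 4), which gave a log2 fold change of -0.28 ± 0.09 (SE). The adjusted p was 0.469 (unadjusted p = 0.01) by the quasi-likelihood method of edgeR. An exact two-sided permutation test, 1 of 9 run and not adjusted, gave p = 0.0571, where the smallest possible is 0.0286. Replicates 1 and 3 alone differed by -0.36 log2 units and replicates 2 and 4 alone by -0.19. Its sign was negative in all 21 refits and the unadjusted p was below 0.05 in each, while the adjusted p was 0.17 at its lowest (DESeq2) and above 0.05 in each. Transcripts of 1500 to 3000 nt, the class of the 2648 nt Lrp8 row, had a median log2 fold change of 0.034, and with the length and GC offset Lrp8 was at -0.35 ± 0.10.

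The other row of Lrp8, a transcript annotated as non-coding, held 82.0% to 87.1% of the counts of the coding row. This share was 84.5 ± 1.04% under bexarotene and 84.7 ± 2.11% under vehicle (SD, n = 4), a difference smaller than the spread between libraries (exact two-sided permutation p = 0.914). On that row all 4 bexarotene libraries (38.1 to 44.4 CPM) lay below all 4 vehicle libraries (44.6 to 52.8 CPM). The rows may hold many of the same reads, so the non-coding row is not separate evidence.

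For Vldlr, the other reelin receptor, the groups were not separated. It was at 54.4, 52.4, 52.5 and 40.2 CPM with bexarotene, against 62.6, 41.4, 57.7 and 49.2 CPM with vehicle. The groups overlapped over most of their range, with the lowest library in the bexarotene group and the highest in the vehicle group. The log2 fold change was -0.08 ± 0.14 (SE; adjusted p 0.923), and its sign changed in 4 of 21 refits. Vldlr was higher in replicates 1 and 3 than in replicates 2 and 4 of both groups, by 0.22 log2 units under bexarotene and 0.41 under vehicle. Under vehicle these replicates also differed in sex-linked transcripts. The 2 rows of Vldlr were identical in 6 of 8 libraries, so the isoforms they name cannot be told apart.

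Mylip, the ligase that marks these receptors, was higher in every bexarotene library than in any vehicle library. It was at 13.1, 12.6, 13.1 and 13.7 CPM with bexarotene, against 11.97, 12.4, 12.4 and 10.4 CPM with vehicle. The gap between the lowest bexarotene and the highest vehicle library was narrow, 12.6 against 12.4 CPM. It was the 1 of 9 genes whose groups did not overlap, where 5.77% of all genes tested had no overlap, 3.61% higher and 2.16% lower. The groups stayed apart under all 4 library scalings tried. Lrp8 was also without overlap, lower under bexarotene, when scaled by library size alone, which makes 2 of 9 there against 5.69% of all genes. The mean of Mylip under bexarotene was 11.6% above that under vehicle, with a log2 fold change of 0.16 ± 0.10 (SE). The adjusted p was 0.71 by the quasi-likelihood method of edgeR; the exact two-sided permutation test gave p = 0.0286, the smallest it can give and not adjusted for the 9 genes. The sign was positive in all 21 refits, from 0.11 to 0.19. Replicates 1 and 3 alone differed by 0.11 log2 units and replicates 2 and 4 alone by 0.21, and it was 0.11 without vehicle replicate 4.

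On the other row of Mylip the groups overlapped, at 6.97 to 7.63 CPM with bexarotene and 3.89 to 7.34 CPM with vehicle (exact two-sided permutation p = 0.0857). That row held 54.1%, 55.2%, 56.5% and 55.9% of the counts of the main row with bexarotene, against 61.3%, 53.2%, 50.9% and 37.5% with vehicle. The 4 bexarotene shares lay close together, while vehicle replicates 1 and 4 were the highest and the lowest of the 8. The group means, 55.4 ± 1.04% and 50.7 ± 9.86% (SD, n = 4), did not differ beyond the spread between libraries (exact two-sided permutation p = 0.486).

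Sorl1 showed the widest spread of the well-measured members, and the spread followed libraries within the bexarotene group. It was at 61.2, 123.6, 64.3 and 152.8 CPM with bexarotene, against 109, 121, 111 and 141 CPM with vehicle. Bexarotene replicates 1 and 3 lay below every other library, and bexarotene replicate 4 lay above every other library. The group means were 100.5 ± 45.2 and 120.5 ± 14.4 CPM (SD, n = 4), which gave a log2 fold change of -0.26 ± 0.29 (SE; adjusted p 0.862). Replicates 1 and 3 taken alone gave a difference of -0.81 log2 units, whereas replicates 2 and 4 gave 0.08. With the replicate number as a block the log2 fold change was -0.37 ± 0.18, at an adjusted p of 0.531. It was -0.09 without bexarotene replicate 1, -0.10 without bexarotene replicate 3 and -0.53 without bexarotene replicate 4.

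Among the 11178 genes with a mean of at least 5 CPM, 4.23% had a larger SD of log2 CPM over the 8 libraries than Sorl1, and 0.555% had a difference within replicates 1 and 3 as low as that of Sorl1. Bexarotene replicates 1 and 3 were the lowest libraries in 14.5% of these genes, Lrp6 among them. The same libraries held the highest summed striatum markers, 1142 and 838 CPM, against 203 to 609 CPM in the other 6. They also held the lowest cortical neuron markers, 120 and 145 CPM. Vehicle replicate 1, with 609 CPM of striatum and 155 CPM of cortical markers, was the next on both counts. Its Sorl1 level of 109 CPM was the lowest under vehicle, where replicates 2 to 4 were at 121, 111 and 141 CPM. Bexarotene replicates 1 and 3 also stood apart in transcript length. In them the Spearman correlation of a gene's level, relative to its mean, with transcript length was -0.42 and -0.43. It was 0.026 to 0.31 in the other 6. Within replicates 1 and 3, the 260 transcripts over 10000 nt at 5 CPM or more had a median log2 difference of -0.30 (quartiles -0.46 and -0.12), beside -0.81 for the 10715 nt Sorl1. With the length and GC offset the log2 fold change of Sorl1 was -0.19 ± 0.25 (SE). The part of regional makeup in the Sorl1 values was not tested. In the GENCODE annotation an antisense gene, Gm16214, overlaps Sorl1 exons, and the strand setting of the counting is not given in the sources used here, so its reads cannot be told apart from those of Sorl1.

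**Figure D2:**
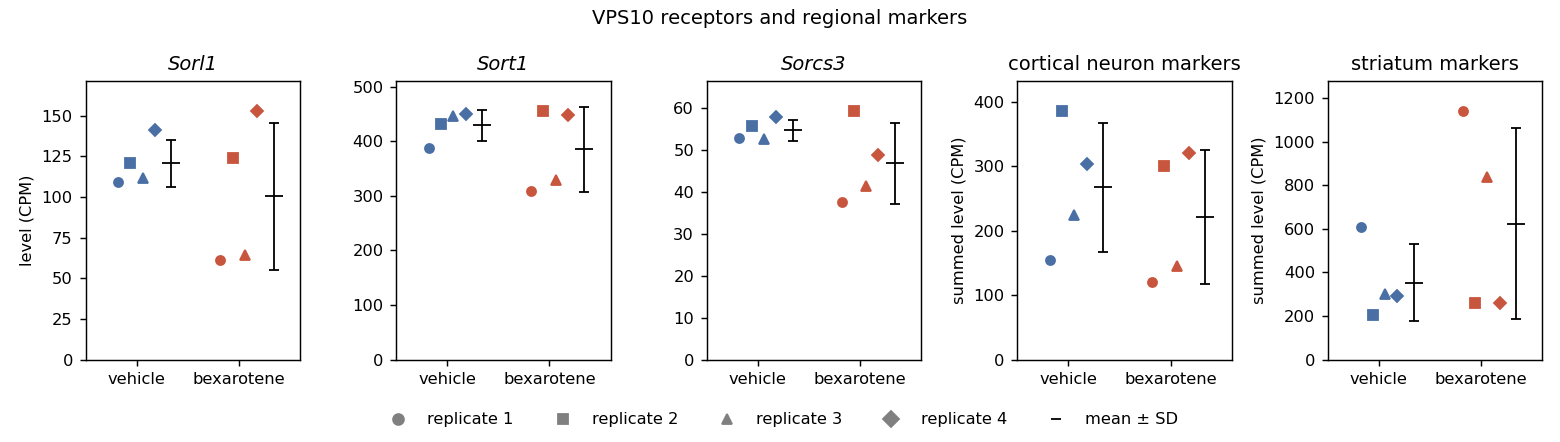
Levels in CPM of Sorl1, Sort1 and Sorcs3 and summed levels in CPM of 5 cortical neuron and 8 striatum markers, by group, with marker shape giving the replicate and the bar the mean ± SD of 4 libraries. Bexarotene replicates 1 and 3 are lowest for the 3 receptors drawn and the cortical markers and highest for the striatum markers. Sorcs1 and Sorcs2, which do not have this pattern, are not drawn.

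Other VPS10 receptors shared this pattern in part. Sort1, the sorting receptor sortilin, was at 308, 456, 329 and 449 CPM in bexarotene replicates 1 to 4 and at 389 to 450 CPM under vehicle. Sorcs3, a receptor of the postsynaptic membrane, was at 37.5, 59.3, 41.4 and 48.8 CPM and at 52.6 to 57.7 CPM. Both had bexarotene replicates 1 and 3 as their lowest libraries, which held for 2 of the 4 other VPS10 receptors and for 1 of 14 retromer and endosomal sorting genes, Vps26a. Their transcripts are 6796 and 5634 nt long, and the length dependence of these 2 libraries applies to them too. The log2 fold change was -0.16 ± 0.13 (SE) for Sort1 and -0.23 ± 0.13 for Sorcs3, with adjusted p of 0.799 and 0.686 in edgeR's quasi-likelihood test. Sorcs2 went the other way within the bexarotene group, at 54.0, 42.9, 56.1 and 45.7 CPM in replicates 1 to 4. Under vehicle it was at 38.1 to 56.8 CPM. Sorcs1 did not have the pattern either, at 23.7, 27.5, 25.2 and 30.8 CPM with bexarotene and 24.3 to 30.2 CPM with vehicle. The 14 retromer and endosomal sorting genes, which carry Sorl1 and its cargo between endosome and Golgi, had a median of -6.1e-05, 7 higher and 7 lower, with 0 called. The examples of smallest p were the sorting nexins Snx17 (0.10 ± 0.07) and Snx5 (0.09 ± 0.08).

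Lrp1, the abundant endocytic receptor, did not separate the groups. It was at 238.1, 305.8, 257.0 and 267.1 CPM with bexarotene, against 238.9, 286.1, 244.4 and 336.9 CPM with vehicle. The bexarotene libraries lay within the vehicle range, apart from replicate 1, which equalled the lowest vehicle library to within 1 CPM. Its log2 fold change was -0.05 ± 0.12 (SE; adjusted p 0.947), and its sign changed in 4 of 21 refits. In both groups Lrp1 was higher in replicates 2 and 4, by 0.21 log2 units under bexarotene and 0.36 under vehicle. Under vehicle these replicates also differed from replicates 1 and 3 in sex-linked transcripts.

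Lrp1b, its close relative, was at 11.1, 15.5, 12.2 and 12.8 CPM with bexarotene, against 15.2, 10.3, 12.5 and 21.1 CPM with vehicle. The vehicle libraries spanned both the lowest and the highest value. The log2 fold change of -0.20 ± 0.21 (SE), adjusted p 0.847, became 0.03 without vehicle replicate 4. An annotated small RNA gene, Gm27348, overlaps an exon of Lrp1b on the same strand.

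For Lrp4, the agrin receptor of the neuromuscular junction, the sign of the difference rested on the same vehicle library. It was at 24.4, 24.1, 22.7 and 33.1 CPM with bexarotene, against 22.4, 24.3, 23.7 and 46.2 CPM with vehicle. Outside the replicates numbered 4, all 6 libraries lay between 22.4 and 24.4 CPM. Its log2 fold change was -0.16 ± 0.24 (SE; adjusted p 0.907), and 0.16 without vehicle replicate 4. Vehicle replicate 4 exceeded the mean of the other vehicle libraries by 0.98 log2 units for Lrp4, a difference reached by 0.564% of the 11178 genes, and by 0.75 for Lrp1b (1.38%). The other row of Lrp4 held 14.3% to 19.1% of the counts of the main row, with group means of 17.0 ± 2.29% and 17.8 ± 1.05% (SD, n = 4; exact two-sided permutation p = 0.514). Agrin signalling partners had 0 of 4 called, with Agrn itself at 141 and 144 CPM under bexarotene and vehicle.

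Lrp6, the Wnt co-receptor, was at 26.2, 32.3, 26.8 and 29.0 CPM with bexarotene, against 32.9, 34.0, 30.1 and 36.4 CPM with vehicle. Of the bexarotene libraries, replicate 2 alone lay above the lowest vehicle library. The means were 28.6 ± 2.72 and 33.4 ± 2.60 CPM (SD, n = 4), which gave a log2 fold change of -0.22 ± 0.10 (SE). The adjusted p was 0.562 (unadjusted p = 0.0406) by the quasi-likelihood method of edgeR; the exact two-sided permutation p was 0.0571. The unadjusted p was below 0.05 in 10 of 21 refits, and the sign was negative in all 21. Replicates 1 and 3 alone differed by -0.25 log2 units and replicates 2 and 4 alone by -0.20. The length and GC offset brought it to -0.10 ± 0.08, an unadjusted p of 0.224, and transcripts of 6000 to 10000 nt, the class of the 9368 nt Lrp6, had a median of -0.12.

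Lrp2, or megalin, the receptor of choroid plexus and other absorptive epithelia, was near the limit of counting. With bexarotene 15, 6, 9 and 18 reads were counted, against 6, 14, 16 and 0 with vehicle, 84 in all. By a limit of 3 counts, the count of 0 allows up to 0.0503 CPM, for counting error only. The exact 95% Poisson interval for the largest count, 18, was 10.7 to 28.4, which overlaps that of every other library with a count above 0. The interval for the 0 of vehicle replicate 4 ended at 3.69 and overlapped only those of the libraries with 6 reads. The log2 fold change was 0.04 ± 0.91 (SE). It was 0.79 in limma voom, 0.90 in replicates 2 and 4 alone and -0.37 without vehicle replicate 4, so no difference was detected amid this spread. Choroid plexus markers varied far more: their summed level was 88.9, 1464, 75.5 and 227 CPM in bexarotene replicates 1 to 4 and 15.9 to 41.6 CPM under vehicle, with all 8 higher, 4 at an unadjusted p below 0.05 and 0 past the threshold. Bexarotene replicate 2, with most of these transcripts, had an Lrp2 level of 0.0806 CPM from 6 reads. The 95% Poisson interval of that count, 2.20 to 13.1, overlaps that of every other bexarotene library. The part of choroid plexus RNA in the Lrp2 level was not tested. The megalin partner Cubn was also low, at 0.427 and 0.522 CPM under bexarotene and vehicle.

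**Figure D3:**
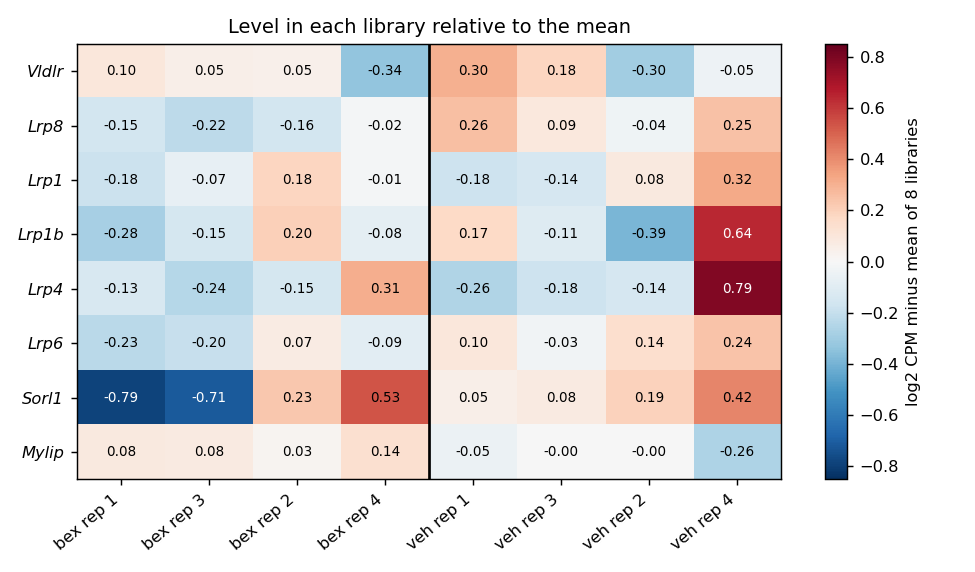
Log2 CPM of 8 genes (rows) in each library (columns, ordered by replicates 1, 3, 2 and 4 within each group) minus the mean of the 8 libraries, printed in each cell and shown as colour. Sorl1 stands at -0.79 and -0.71 in bexarotene replicates 1 and 3, and Lrp4 at 0.79 in vehicle replicate 4.

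Genes whose level relative to their own mean lay nearest to a member over the 8 libraries were named as a description. Sorl1 was nearest to 6430704M03Rik (mean absolute difference 0.072 log2 units, against a mean absolute deviation of 0.38 for Sorl1 itself) and Rasal2 (0.11). Lrp8 was nearest to D15Ertd621e (0.037) and Tgs1 (0.048), Vldlr to Rab3b (0.033) and Crim1 (0.047), and Lrp6 to Zfp148 (0.019) and Jmjd1c (0.029). Mylip was nearest to the proteasome subunit gene Psmc4 (0.021) and to 2410001C21Rik (0.027), Lrp1 to Zmym5 (0.043) and Tbcel (0.045), Lrp1b to Zfp108 (0.080) and Fam135a (0.096), and Lrp4 to Ms4a6d (0.078) and Sall3 (0.078). For Lrp2 the nearest, Col7a1 and Polr2k, differed by 0.29 and 0.30, as its low counts scatter. The libraries form clusters, so these distances describe shared scatter and not a relation.

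Of 102 genes in 12 lists of ligands, partners and pathway members, 100 were tested, 0 passed the threshold over all genes, an unadjusted p below 0.05 was found for 7 higher and 2 lower genes, and the median log2 fold change was 0.0092. Background shares at that unadjusted level were 4.88% higher and 3.89% lower. Reelin signalling genes were lower in 12 of 14 (median -0.09), with 0 called. Pafah1b1, a dynein regulator, stood at -0.18 ± 0.09 (log2 fold change ± SE), and Crk, an adaptor below Dab1, had -0.13 ± 0.07. Transcripts of 3000 to 6000 nt, the class of both (5803 and 3642 nt), had a median of -0.046. Bexarotene replicates 1 and 3 were the lowest libraries in 5 of the 14, beside 14.5% of the 11178 genes at 5 CPM or more. The part of transcript length in the reelin signalling values was not tested. The 6 other receptor-related proteins had a median of -0.06, 2 higher and 4 lower, with Lrp11 at -0.12 ± 0.08 and Lrp3 at -0.11 ± 0.09.

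Secreted ligands had the highest median of the lists, 0.19, with 11 of 13 higher, 4 of them at an unadjusted p below 0.05 and 0 called over all genes. Apoe, the main lipoprotein ligand in brain, was at 2226, 1381, 1872 and 1578 CPM in bexarotene replicates 1 to 4 and at 1104, 1043, 1192 and 1187 CPM under vehicle. Every bexarotene library exceeded every vehicle library, and the log2 fold change was 0.64 ± 0.14 (SE; adjusted p 0.36). A2m, a protease inhibitor taken up by Lrp1, was at 4.24 ± 1.19 and 2.56 ± 0.644 CPM (SD, n = 4), which gave a log2 fold change of 0.73 ± 0.26. Clu, another lipoprotein component, was the other ligand with no overlap, at 833 and 730 CPM under bexarotene and vehicle. Transcript lengths were 1408 nt for Apoe, 1810 nt for Clu and 4605 nt for A2m. Genes of 700 to 1500 nt had a median log2 fold change of 0.14. It was 0.034 at 1500 to 3000 nt and -0.046 at 3000 to 6000 nt. The part of transcript length in the ligand levels was not tested. Among the 100 tested genes of all 12 lists, 2 were higher without overlap and 0 lower. Over all genes tested these shares were 3.61% and 2.16%. Of the microglia markers, all 6 were higher, 5 at an unadjusted p below 0.05 and 0 past the threshold, with a summed level of 320 to 428 CPM under bexarotene and 249 to 310 CPM under vehicle, and their part in the ligand levels was not tested. The microglia sum was 379, 320, 335 and 428 CPM in bexarotene replicates 1 to 4.

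**Figure D4:**
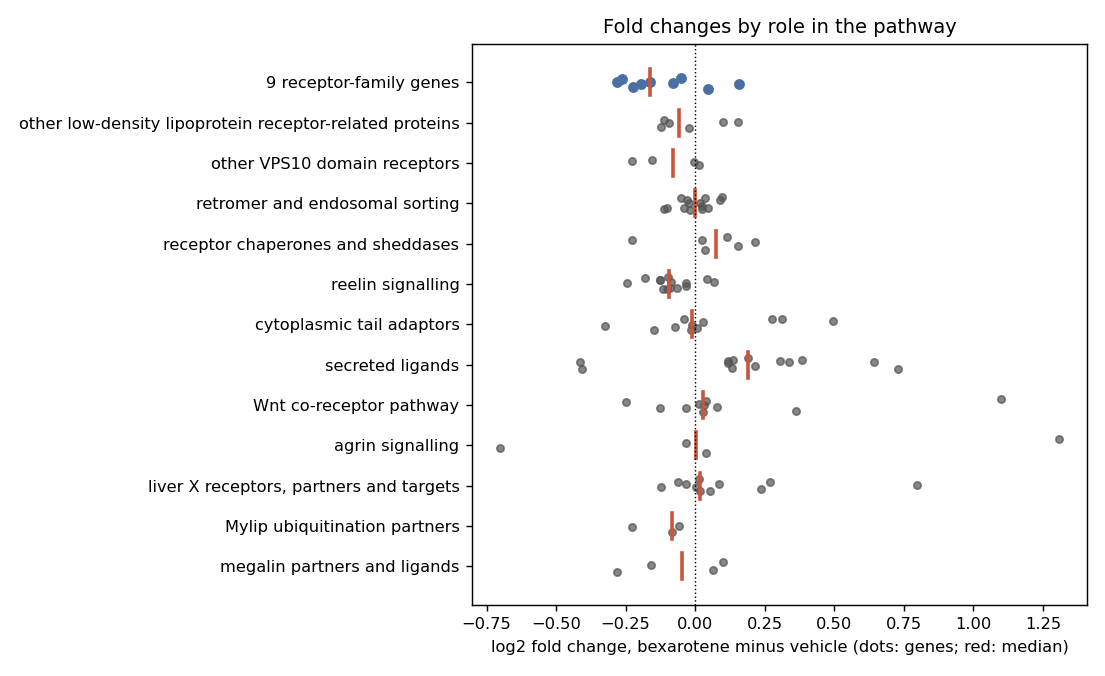
Log2 fold change, bexarotene minus vehicle (horizontal axis), of the 9 genes (blue) and of the tested genes in 12 lists (grey dots, 1 per gene), with the median of each row in red. Medians lie between -0.16 for the 9 genes and 0.19 for secreted ligands, and no gene shown passed the threshold.

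Liver X receptors, which induce Mylip, listed with their retinoid X partners and other target genes, had a median of 0.016, with 8 of 11 higher and 0 called. Lpcat3, a phospholipid remodelling enzyme, stood at 0.24 ± 0.10 (log2 fold change ± SE). The receptor gene Rxrg was at 0.80 ± 0.77. Abca1, the cholesterol exporter, was at 23.3 and 25.4 CPM under bexarotene and vehicle. Rxrg was highest in bexarotene replicates 1 and 3, at 26.6 and 20.3 CPM, the libraries with the highest striatum markers. Of the ubiquitination partners of Mylip, 0 of 3 were higher; Ube2d3 had -0.23 ± 0.09 and Ube2d1 -0.08 ± 0.10. Chaperones and sheddases were higher in 5 of 6 (median 0.07), with Lrpap1, the chaperone of the family, at 0.21 ± 0.13 and the protease Adam10 at -0.23 ± 0.13.

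Cytoplasmic tail adaptors were higher in 5 of 11 (median -0.01), with Shc1, an adaptor of receptor tyrosine kinases, at 0.28 ± 0.14. Wnt co-receptor pathway genes were higher in 7 of 10 tested (median 0.03), with 2 others, Dkk1 and Sost, below the filter. Gsk3b, the kinase inhibited by Wnt signalling, had -0.25 ± 0.10, and Sostdc1, an Lrp-binding antagonist, 1.10 ± 0.49. Sostdc1 was at 5.04 CPM in bexarotene replicate 2, the library with the highest choroid plexus markers, and at 1.24 to 1.75 CPM in the other bexarotene libraries. The part of choroid plexus RNA in its level was not tested. Of the remaining genes named by rule, Rapsn had 1.31 ± 0.58 and Musk -0.70 ± 0.59, both under 1 CPM on average, and Rbp4 had -0.16 ± 0.43.

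**Figure D5:**
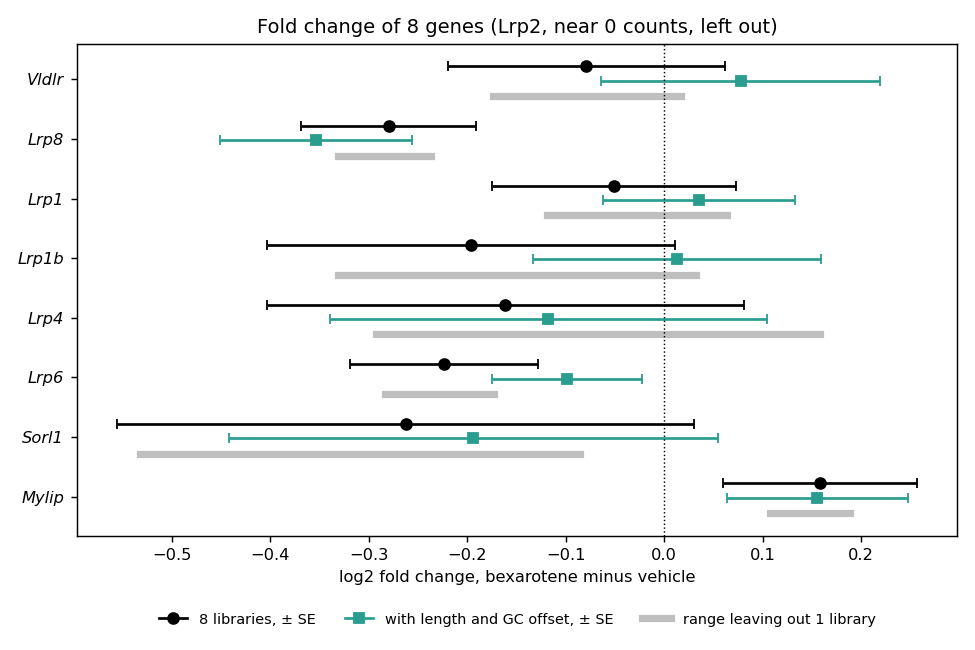
Log2 fold change, bexarotene minus vehicle (horizontal axis), of 8 genes with all 8 libraries (black, ± SE) and with a length and GC offset (green, ± SE), and the range when 1 library is left out (grey bars). The points and ranges of Lrp8, Lrp6 and Sorl1 lie below 0 and those of Mylip above 0, but both SE bars of Sorl1 cross 0. The ranges of Vldlr, Lrp1, Lrp1b and Lrp4 cross 0.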

How the data were processed

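Per the labels' protocols, mouse cortex RNA (Qiagen RNeasy) went into stranded TruSeq mRNA libraries. The authors deposited whole-number counts of reads for 28644 RefSeq transcripts. The submitters' processing notes name mm9 and edgeR; for the aligner, counting program and strand setting, each is not given in the sources used here. Sample titles gave groups and replicate numbers, and 0 columns were left out. The 9 genes and all lists were chosen with earlier results of these data known.

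The test was edgeR's quasi-likelihood test (edgeR 4.0.16, R 4.3.3) with TMM factors, the default filter (minimum count 10), robust dispersions and group as the only term, with Benjamini-Hochberg adjustment over 21285 rows for 16069 genes; the code was tested on simulated counts. Standard errors were derived from the F statistic. Log2 CPM used a prior count of 2. Genes named from a list are the 2 with the smallest p or any past the threshold of 0.05, and 1 of these is not reported here; the nearest genes are the 2 with a mean of at least 1 CPM. Clu, Agrn, Abca1, Gm16214, Gm27348, Vps26a, Sorcs1 and Sorcs2 were named after their values were seen.

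Lengths came from GENCODE M21 transcripts matched by accession (97.6% of tested rows; 11 of 13 rows of the 9 genes). The offset is a per-library spline in length and GC content. Alternatives used DESeq2 1.42.0 and limma 3.58.1. Nothing in the labels says that a replicate number marks a shared animal, litter or day. Same-numbered libraries deviated together, with correlations across genes of 0.43, 0.28, 0.14 and 0.16 for replicates 1 to 4, all above 0.1. Libraries of unlike number did so too. Bexarotene replicate 3 correlated with vehicle replicate 1 at 0.44, bexarotene replicate 4 with vehicle replicate 2 at 0.23, and bexarotene replicate 2 with vehicle replicate 4 at 0.20. Whether the numbers mark pairs is therefore not known, and the replicate block and the pairs serve as alternatives only.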

Additional observations from a re-analysis of the deposited data

Results flagged for a closer look

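Within a group of 4 libraries, 3 values lay far from the others by Dixon's criterion at the 95% level, out of 18 groups examined; chance marks about 1 in 20 groups. Lrp4 in vehicle replicate 4, at 46.2 CPM, stood apart from the nearest vehicle library at 24.3 CPM. Lrp4 in bexarotene replicate 4, at 33.1 CPM, stood apart from the nearest at 24.4 CPM. Vldlr in bexarotene replicate 4, at 40.2 CPM, lay below the nearest at 52.4 CPM.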

How the results depend on the processing

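The count of members called was 0 in the 21 refits run. The count over all genes was 1, 97 with DESeq2 and 37 with the edgeR exact test, and 1 to 2 when 1 library was left out (2 without bexarotene replicate 2); the cause of the larger counts was not tested. The replicate block changed no member's call; it gave -0.37 for Sorl1 and -0.28 for Lrp8. The exact permutation p of Mylip was 0.0286 over all libraries and 0.125 within pairs, an alternative added after seeing the data, for which 0.125 is the smallest possible. Signs held in all 21 refits for Lrp8, Lrp6, Sorl1 and Mylip. With the length and GC offset the log2 fold change was 0.078 for Vldlr, 0.036 for Lrp1 and 0.013 for Lrp1b, and with the offset and the replicate block 0.074, 0.040 and 0.037. Leaving out 1 library gave -0.17 to 0.017 for Vldlr, -0.12 to 0.064 for Lrp1, -0.33 to 0.032 for Lrp1b, -0.37 to 0.44 for Lrp2 and -0.29 to 0.16 for Lrp4. Within replicates 1 and 3 alone the difference was 0.034 for Lrp1, -0.16 for Lrp2 and 0.030 for Lrp4, and within replicates 2 and 4 alone 0.025 for Vldlr and 0.076 for Sorl1. The cause of these sign changes was not tested. A filter of 1 CPM removed Lrp2, whose depth of 0 to 18 counts limits any statement on it.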
